A study of Mus musculus with 24 samples.

Results

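Integrins are adhesion receptors of the cell surface in which 1 alpha and 1 beta subunit pair to bind extracellular matrix or other cells. In skin the laminin receptors alpha3beta1 and alpha6beta4 hold basal keratinocytes to the basement membrane, alpha6beta4 as the core of the hemidesmosome. When keratinocytes leave the wound edge they meet collagen and fibronectin-rich provisional matrix, which alpha2beta1, alpha5beta1 and the alphav integrins bind, while alpha5beta1, alphavbeta5 and alpha8beta1 are known receptors of fibroblasts, vessels and contractile stroma. The 10 subunit genes described here, 6 alpha (Itga2, Itga3, Itga5, Itga6, Itga8 and Itgav) and 4 beta (Itgb1, Itgb4, Itgb5 and Itgb6), were chosen by gene symbol from the 18368 genes of the deposited expression table. All 10 were measured in every library and passed the filter on low values.

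The 24 libraries came from 12 CD-1 outbred mice aged 7 weeks, an age at which the labels place them in telogen, the resting phase of hair follicles, and the labels give no allele or agent for any of them. Each mouse carried full-thickness 2 mm punch wounds at 1 site only, abdomen, back or cheek, with 4 mice per site. From every mouse a wound taken at day 3 and unwounded skin beside it were sequenced as total RNA of whole tissue, so that epidermis, dermis, vessels, immune cells and underlying muscle contribute together. Values are FPKM, a read count divided by transcript length and by library size, which takes transcript length into account and allows levels of different genes to be set side by side. In bulk tissue, fewer cells of a type and less RNA per cell cannot be told apart.

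Keratinocyte, fibroblast, vessel and leukocyte markers were detected in both states, and no gene of these marker lists was at 0 in every library of a state. The summed FPKM of 4 inner root sheath keratins of growing hair follicles was 4037 in the unwounded cheek library of mouse 4 and between 0.03 and 66.7 in the other 23 libraries (66.7 in unwounded back mouse 2). These values differ from the labelled phase in cheek mouse 4, and some cheek results, though not all, are also given without that mouse. The summed FPKM of 5 skeletal muscle markers was 434 and 2293 in the unwounded abdomen libraries of mice 2 and 3 against 9727 to 19570 in the other 10 unwounded libraries, and 1528 to 5796 in wounds. Values were compared as log2(FPKM + 0.5) with limma, on a scale that understates changes of genes at low FPKM. A wound effect is the wound minus the unwounded value of the same mouse and was called at an adjusted p below 0.001, with counts at 0.05 beside it.

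Promoter windows (250 bases before to 50 after the start of transcription, RefSeq, GRCm38.p6) are printed for 3 subunits. Itga5 and Itgb1 were higher in the wounds of all 12 mice. Itga8 was lower in 9 of 12 and passed 0.05 at the abdomen only. Windows were at hand for 8 of the 10 genes. Capitals mark the GC box, GGGCGG on either strand, a motif of constitutive promoters that Sp factors bind, which was present in 35.7% of all 32851 windows.

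Itga5 promoter, chr15:103366742-103367041, - strand: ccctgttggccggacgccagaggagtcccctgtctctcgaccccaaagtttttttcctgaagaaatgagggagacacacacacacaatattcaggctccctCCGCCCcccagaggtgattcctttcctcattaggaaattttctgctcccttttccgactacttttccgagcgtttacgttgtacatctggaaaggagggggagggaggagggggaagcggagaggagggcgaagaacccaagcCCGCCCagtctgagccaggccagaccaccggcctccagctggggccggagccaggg

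Itgb1 promoter, chr8:128685404-128685703, + strand: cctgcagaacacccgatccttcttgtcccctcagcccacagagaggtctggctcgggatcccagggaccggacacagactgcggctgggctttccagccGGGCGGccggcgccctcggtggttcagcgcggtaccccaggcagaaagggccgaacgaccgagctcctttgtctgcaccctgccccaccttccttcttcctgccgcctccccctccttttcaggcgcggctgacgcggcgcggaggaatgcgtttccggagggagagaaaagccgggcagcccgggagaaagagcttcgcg

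Itga8 promoter, chr2:12301895-12302194, - strand: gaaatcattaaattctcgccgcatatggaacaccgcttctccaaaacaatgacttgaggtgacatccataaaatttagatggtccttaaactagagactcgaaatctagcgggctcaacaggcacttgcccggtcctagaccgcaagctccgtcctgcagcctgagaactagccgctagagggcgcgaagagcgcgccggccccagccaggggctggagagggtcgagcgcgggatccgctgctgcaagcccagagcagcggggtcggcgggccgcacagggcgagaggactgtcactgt

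The Itga5 window held 2 GC boxes, the Itgb1 window 1 and the Itga8 window none. Among the windows not printed, that of Itgb5 held 3, those of Itga3 3 and 1, those of Itga2 and Itgav 1 each and those of Itgb6 none. A link between the number of boxes and the wound effect was not tested. Neither the AP-1 motif TGANTCA (7.81% of all windows) nor the CArG box of serum response factor (1.63%) was found in the 3 printed windows on either strand. Of the windows not printed, the second of Itga3 held 1 AP-1 motif and the second of Itgb6 held 1 CArG box. These matches describe letters in the windows and not bound sites.

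In unwounded skin the 10 subunits spanned a wide range of levels. Itgb1, the beta subunit shared by the alpha2, alpha3, alpha5 and alpha8 receptors among others, was highest with a mean of 80.9 FPKM over the 12 mice (64.96 to 95.75). Itgb5, the partner of alphav in vitronectin binding, followed with 52.3 FPKM (44.73 to 56.67), and the ranges of these genes did not overlap each other or that of any other subunit. Itga6 at 25.6 FPKM (19.17 to 33.15) and Itgb4 at 24.5 FPKM (21.13 to 27.64), the alpha and beta chains of the hemidesmosome receptor, lay within each other's spread. Itga3 at 11.9 FPKM, Itga5 at 9.18 and Itgav at 8.73 had overlapping ranges. Itgb6, the epithelial partner of alphav that activates latent TGF-beta, had 2.93 FPKM, Itga8 2.02 and Itga2, the collagen receptor subunit, 1.14. The ranges of the last 3 also overlapped, with Itga2 reaching 0.28 FPKM in a single library.

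**Figure D1:**
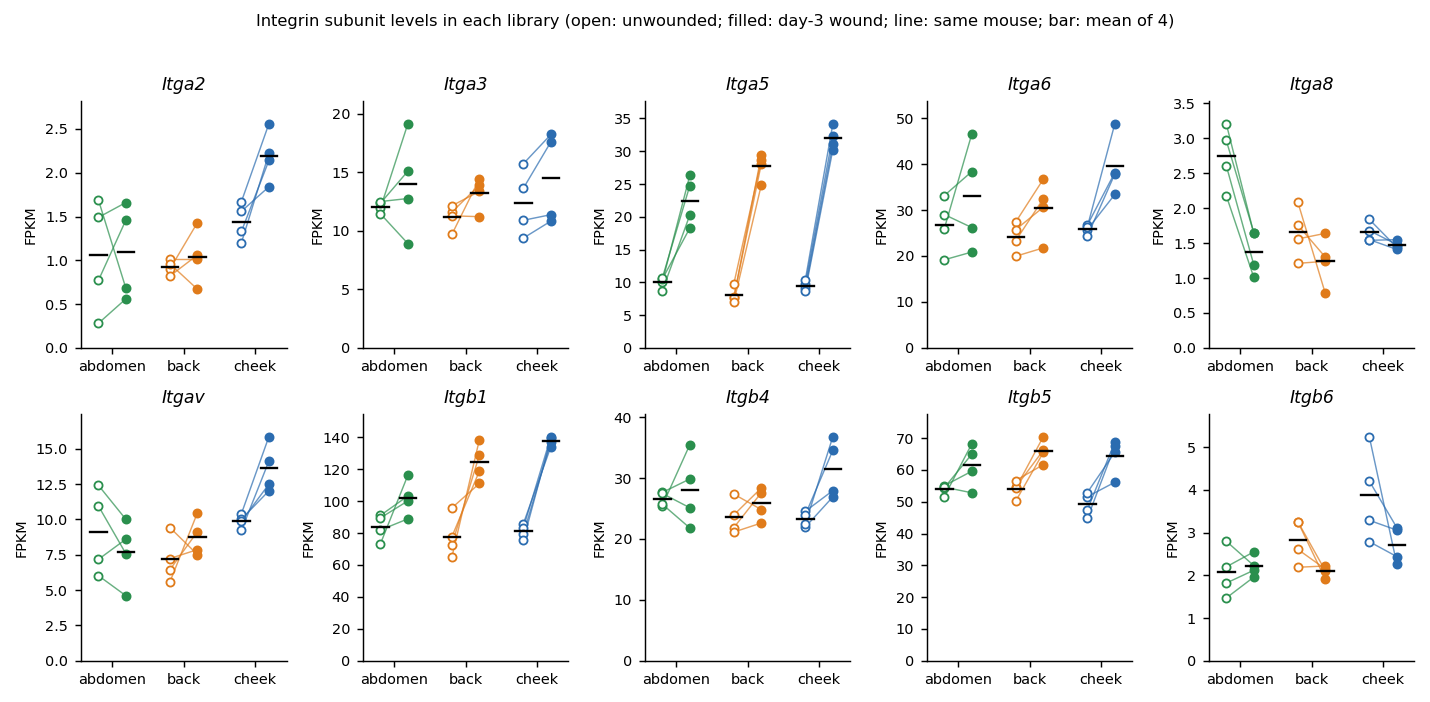
FPKM of the 10 integrin subunits (vertical axis, starting at 0) in each of the 24 libraries by site; open points are unwounded skin, filled points day-3 wounds, lines join samples of the same mouse and bars are means of 4. Itga5 rose in all 12 mice with no overlap between unwounded skin (7.03 to 10.66 FPKM) and wounds (18.28 to 34.20 FPKM).

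Itga5 (chr15:103344286-103366791, GRCm38.p6 as for all genes here), the fibronectin receptor alpha subunit, rose in the wounds of every mouse. At the abdomen its level was 10.1, 10.5, 8.71 and 10.66 FPKM in the unwounded skin of mice 1 to 4 and 26.33, 18.28, 20.28 and 24.77 FPKM in their wounds. At the back it was 7.63, 7.76, 9.79 and 7.03 FPKM in unwounded skin and 29.44, 28.11, 28.62 and 24.89 FPKM in wounds. At the cheek it was 9.74, 10.4, 9.13 and 8.73 FPKM in unwounded skin and 32.37, 34.2, 31.15 and 30.26 FPKM in wounds. No wound library overlapped any unwounded library. The log2 wound effect was 1.12 ± 0.09 (SE, n = 4 mice) at the abdomen with adjusted p = 5.3e-06, 1.73 ± 0.09 at the back with 1.0e-07 and 1.70 ± 0.09 at the cheek with 1.1e-07. All 12 within-mouse changes were positive, between 0.77 and 1.88 on the log2 scale (exact sign-change test, two-sided, p = 0.000488, the smallest that 12 mice allow). Leaving out any 1 mouse kept Itga5 called at all 3 sites, with adjusted p no higher than 9.7e-05. Only a fit on the 8 abdomen libraries alone lost the call, at adjusted p = 0.0020.

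Itgb1 (chr8:128685654-128733579), the subunit that pairs with alpha5, was higher in the wound than in the unwounded skin of all 12 mice. At the cheek it had 85.91, 83.33, 79.54 and 75.6 FPKM in unwounded skin and 134.18, 140.41, 137.18 and 139.45 FPKM in wounds. At the back it had 64.96, 72.69, 77.72 and 95.75 FPKM in unwounded skin and 138.47, 128.83, 118.82 and 111.06 FPKM in wounds. Neither site showed overlap between states. At the abdomen the values were 73.17, 91.04, 81.88 and 89.45 FPKM against 116.24, 103.25, 88.89 and 100.14 FPKM, where the lowest wound lay within the unwounded range. The log2 wound effect was 0.76 ± 0.12 at the cheek (adjusted p = 0.00056), 0.68 ± 0.12 at the back (0.00082) and 0.28 ± 0.12 at the abdomen (0.099). Both calls lay near the threshold. The back call was lost in 10 of 12 fits that left out 1 mouse (kept only without abdomen mouse 1 or back mouse 4) and the cheek call in 6 of 12 (without any cheek mouse, back mouse 2 or back mouse 3), with adjusted p no higher than 0.0070 and 0.0035. Rescaling to equal totals gave 0.0058 and 0.0016.

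Counted over the 10 subunits, 1 was called at the abdomen (Itga5), where 4.96% of the 14423 genes tested were called, and 2 at the back (Itga5 and Itgb1; 14.4% of genes) and at the cheek (Itga5 and Itgb1; 8.69%). With a threshold of 0.05 the counts were 2 of 10 at the abdomen (32.9% of genes), 3 at the back (45.9%) and 6 at the cheek (36.6%), shares below that of all genes at abdomen and back and above it at the cheek. The median log2 wound effect of the 10 subunits was 0.13, 0.26 and 0.43 at abdomen, back and cheek, against -0.01, 0.07 and 0.01 over all genes tested.

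**Figure D2:**
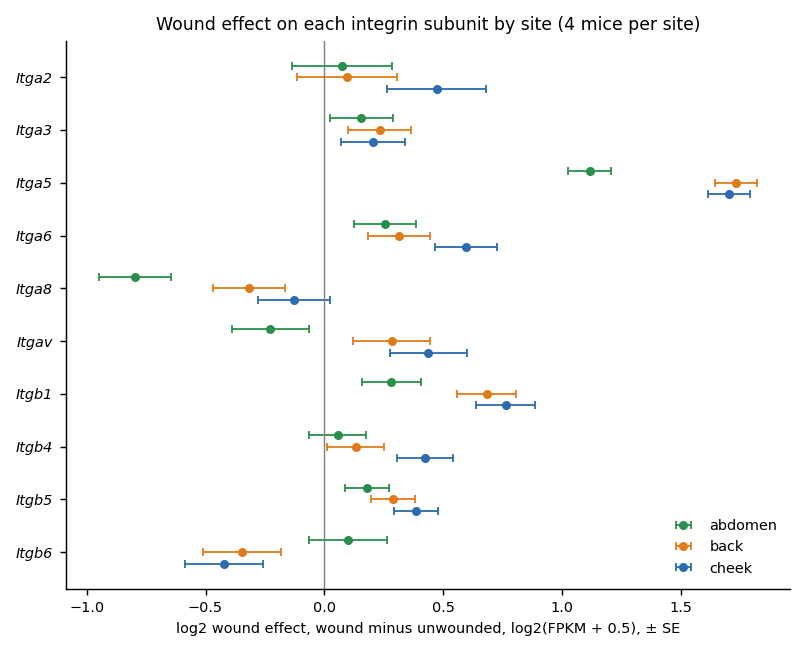
Log2 wound effect of each subunit (horizontal axis, wound minus unwounded skin of the same mouse) with its standard error at abdomen, back and cheek, 4 mice each. Itga5 stands furthest to the right at every site (1.12 to 1.73), and Itga8 at the abdomen furthest to the left (-0.80).

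The laminin receptor subunits of basal keratinocytes changed less. Itga6 (chr2:71786886-71858427) had 25.75, 26.71, 24.31 and 26.32 FPKM in unwounded cheek and 33.4, 38.16, 37.85 and 48.79 FPKM in cheek wounds, with no overlap. Its log2 wound effect was 0.60 ± 0.13 at the cheek (adjusted p = 0.0037, past 0.05 only), 0.31 ± 0.13 at the back (0.066) and 0.25 ± 0.13 at the abdomen (0.15). With 1 mouse left out the cheek effect lay between 0.50 and 0.67 (adjusted p from 0.00045 to 0.019). Higher values in wounds were found in 11 of 12 mice (exact sign-change test, p = 0.00195, unadjusted, 1 of 10 subunits so tested). Itgb4 (chr11:115974725-116008412), its partner, passed 0.05 at the cheek only, with 0.42 ± 0.12 (adjusted p = 0.015), and this call was lost without cheek mouse 3 (adjusted p = 0.061) or cheek mouse 4 (0.33, adjusted p = 0.068). Cheek wounds had 26.91, 27.94, 34.56 and 36.8 FPKM of Itgb4 against 21.96, 24.55, 23.98 and 22.47 FPKM in unwounded cheek. Abdomen wounds spread from 21.8 to 35.49 FPKM around an unwounded range of 25.47 to 27.64 FPKM. Itga3 (chr11:95044475-95076844), the alpha subunit of the receptor for laminin-332, passed the threshold of 0.05 at no site, with log2 wound effects of 0.16 to 0.23 (adjusted p from 0.17 to 0.39).

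Wounds of different mice at the same site could lie far apart for these epithelial genes. Itga3 had 19.15, 15.1, 12.76 and 8.91 FPKM and Itga6 46.55, 38.38, 20.86 and 26.19 FPKM in the wounds of abdomen mice 1 to 4. Their unwounded skin held 11.46 to 12.5 and 19.17 to 33.15 FPKM. Cheek wounds spread almost as widely for Itga3, at 10.83 to 18.23 FPKM, and unwounded cheek held 9.38 to 15.73 FPKM. Back wounds had 11.21 to 14.44 FPKM of Itga3. For Itga6 cheek wounds had 33.4 to 48.79 FPKM and back wounds 21.76 to 36.72 FPKM. The summed FPKM of 4 keratins of activated keratinocytes (Krt6a, Krt6b, Krt16 and Krt17) also ranged widely in abdomen wounds, from 2107 to 14682, against 6174 to 10924 in back wounds and 4241 to 11994 in cheek wounds. Its part in the spread of the integrin values was not tested.

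Itga2 (chr13:114833081-114932100), which with beta1 forms the collagen receptor of migrating keratinocytes, was low in all libraries, at 0.28 to 2.56 FPKM. At the cheek it had 1.33, 1.56, 1.2 and 1.67 FPKM in unwounded skin and 2.14, 1.84, 2.22 and 2.56 FPKM in wounds, with every wound above every unwounded sample, yet the wound effect of 0.47 ± 0.21 missed the threshold of 0.05 (adjusted p = 0.095). The abdomen mice went both ways, from 0.77 to 1.46 FPKM in mouse 1 and from 1.69 to 0.68 FPKM in mouse 4. Itgb6 (chr2:60598292-60722603), the epithelial partner of alphav, was lower in the wound of all 4 cheek mice, with 3.29, 4.21, 2.79 and 5.25 FPKM in unwounded skin and 3.06, 3.12, 2.44 and 2.27 FPKM in wounds. These ranges overlapped, and no site passed 0.05 (cheek -0.42 ± 0.16, adjusted p = 0.059, back -0.35 ± 0.16, 0.099, abdomen 0.10 ± 0.16, 0.67). Cheek mouse 4, the library with the inner root sheath keratins, held the highest unwounded level of Itgb6, and without it the cheek effect was -0.21 (adjusted p = 0.30).

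Among the subunits of stroma, Itga8 (chr2:12106632-12301985), the nephronectin and osteopontin receptor of smooth muscle and pericyte-like cells, was lower in abdomen wounds. There it had 2.18, 2.97, 2.61 and 3.21 FPKM in unwounded skin and 1.01, 1.65, 1.19 and 1.64 FPKM in the wounds of the same mice, without overlap. The log2 effect of -0.80 ± 0.15 passed 0.05 (adjusted p = 0.0021) but not 0.001, which it did pass without back mouse 3 (0.00034), after quantile normalization (0.00084) and without the term for mouse (0.00091). At the back (-0.32 ± 0.15, adjusted p = 0.11) and the cheek (-0.13 ± 0.15, 0.55) wounds and unwounded skin overlapped, at 0.78 to 2.09 and 1.41 to 1.84 FPKM over both states. Summed FPKM of 7 smooth muscle and pericyte markers lay between 274 and 1013 in unwounded skin and between 455 and 800 in wounds. These 7 markers went both ways, with a median log2 wound effect of 0.13 at the abdomen and 4 of 7 above 0. At a threshold of 0.05, Myh11 (-1.0) and Cnn1 (-0.90) were lower and Rgs5 (0.55) higher in abdomen wounds. At the cheek, where Itga8 did not pass, Myh11 (-0.54) and Cnn1 (-0.79) were lower and Acta2 (0.43), Rgs5 (0.41) and Pdgfrb (0.77) higher. At the back, where Itga8 did not pass either, 3 of the 7 markers were higher and 0 lower. Their part in the value of Itga8 was not tested.

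Itgb5 (chr16:33829665-33949338) was higher in the wound of 11 of 12 mice by a small amount. At the back it had 54.59, 54.27, 56.67 and 50.23 FPKM in unwounded skin and 66.19, 70.46, 61.66 and 65.49 FPKM in wounds, without overlap. Its log2 wound effects were 0.18 ± 0.09 at the abdomen (adjusted p = 0.15), 0.29 ± 0.09 at the back (0.023) and 0.39 ± 0.09 at the cheek (0.0062), so that back and cheek passed 0.05. The back call was lost without back mouse 1 (0.054), 2 (0.090) or 4 (0.082), and under all 3 rescalings of the libraries (0.11 to 0.23). Itgav (chr2:83722303-83806917), its alpha partner, passed 0.05 at the cheek only (0.44 ± 0.16, adjusted p = 0.049), from 10.4, 9.22, 10.01 and 9.87 FPKM in unwounded skin to 15.85, 14.12, 12.02 and 12.49 FPKM in wounds, a call at the edge of the threshold. It was lost without any 1 of the cheek mice (0.072 to 0.16), without abdomen mouse 2, 3 or 4 and without back mouse 2 or 3 (0.052 to 0.061). At the abdomen 3 of 4 mice had less Itgav in the wound (-0.23 ± 0.16, adjusted p = 0.30).

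Marker sums of other cell types were compared between unwounded skin and wounds. The summed FPKM of 5 neutrophil markers was 8.18 to 37.6 in unwounded skin and 344 to 2388 in wounds, that of 5 macrophage markers 258 to 521 and 498 to 817, and that of 5 endothelial markers 68.7 to 105 and 96.8 to 130. For 6 fibroblast markers the sums were 4426 to 11106 in unwounded skin and 2826 to 6120 in wounds. These 6 markers did not all go the same way. At a threshold of 0.05, 0, 1 and 1 of them were higher at abdomen, back and cheek, and 4, 3 and 2 were lower. Of all genes 32.9%, 45.9% and 36.6% passed it in either direction. Leukocytes, vessels and fibroblasts are known to carry alpha5beta1, and the part of each cell type in the rise of Itga5 and Itgb1 was not tested.

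Whether subunits of a receptor changed to the same extent was asked with log2 ratios within a library. Apart from the added 0.5 FPKM, which weighs on genes at low FPKM, these ratios do not depend on scaling between libraries. In all, 14 ratios were compared in the 12 mice by exact sign-change tests, and adjusted p values were taken over these 14. The ratios were chosen with earlier results of these data known, and they partly restate the wound effects given above. The ratio of Itga5 to Itgb1 rose in 12 of 12 mice, by 0.94 ± 0.24 (SD, n = 12; p = 0.000488, adjusted p = 0.00076), with 0.84 at the abdomen, 1.05 at the back and 0.94 at the cheek. The other 4 alpha subunits that were set against Itgb1 fell relative to it. Itgb1 itself rose in 12 of 12 mice, and any subunit that rises less falls in such a ratio. Taken alone, Itga3, Itga2 and Itgav were higher in the wounds of 10, 9 and 8 of 12 mice, and Itga8 was lower in 9 of 12. Itga8 to Itgb1 fell by 0.99 in 12 of 12 mice, Itgav to Itgb1 by 0.41 in 12 of 12 (both exact p = 0.000488), Itga3 to Itgb1 by 0.38 in 11 of 12 (exact p = 0.0034) and Itga2 to Itgb1 by 0.36 in 11 of 12 (exact p = 0.0083). The last was lost with a smaller pseudocount of 0.1 (exact p = 0.079). Itga5 made up 15.7% ± 1.7 (SD, n = 12) of the summed FPKM of the 6 alpha subunits in unwounded skin and 31.4% ± 4.6 in wounds, and the ranges, 13.7 to 18.5% and 21.5 to 37.0%, did not overlap. The mean share of Itga6, the highest of these 6 in both states, went from 43.6% ± 3.3 to 38.4% ± 4.1, with overlap.

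The partners of the hemidesmosome and alphav receptors were compared in the same way. Itga6 to Itgb4 rose by 0.18 ± 0.12 in 12 of 12 mice (exact p = 0.000488), a small change with the same sign throughout. Itgb6 to Itgb5, both beta partners of alphav, fell by 0.51 ± 0.54 in 10 of 12 mice (exact p = 0.0063), with -0.08 at the abdomen, -0.63 at the back and -0.81 at the cheek. Itgb6 to Itgav changed by -0.39 ± 0.63 (exact p = 0.059), with 3 of 4 abdomen mice up and all 8 back and cheek mice down. For both ratios of Itgb6 the lowest value was that of cheek mouse 4 (-1.64 to Itgb5 and -1.38 to Itgav). With any 1 mouse left out the exact p of Itgb6 to Itgb5 was no higher than 0.013. Itgb5 to Itgav changed by 0.12 ± 0.44 (exact p = 0.36).

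The epithelial subunits were also set against the mean of Krt5 and Krt14, the keratin pair of basal keratinocytes. Against these keratins Itga6 fell by 0.71 ± 0.20, Itga2 by 0.88 ± 0.39, Itgb4 by 0.89 ± 0.25, Itga3 by 0.90 ± 0.21 and Itgb6 by 1.32 ± 0.56 (SD, n = 12), each in 12 of 12 mice with exact p = 0.000488 and adjusted p = 0.00076. The lowest value for Itgb6, -2.34, was that of cheek mouse 4. Without the keratins as a reference, Itga6, Itga3, Itgb4 and Itga2 were higher in the wounds of 11, 10, 9 and 9 of 12 mice. Itgb6 was lower in 8 of 12. A subunit that rises less than the denominator falls in such a ratio. Most of the shift in the denominator came from Krt14, with log2 wound effects of 1.54 at the abdomen, 1.99 at the back and 1.94 at the cheek, while Krt5 had 0.27, 0.33 and 0.50. Of 5 listed genes of basal keratinocytes, only these 2 had wound effects above 0 at each site. The median of the 5 was -0.33, -0.30 and -0.13 at abdomen, back and cheek. Krt15 and Trp63 had wound effects below 0 at all 3 sites (-0.77 to -1.03 and -0.27 to -0.33), as did Col17a1. Ratios to Krt15, Trp63 or Col17a1 were not computed.

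**Figure D3:**
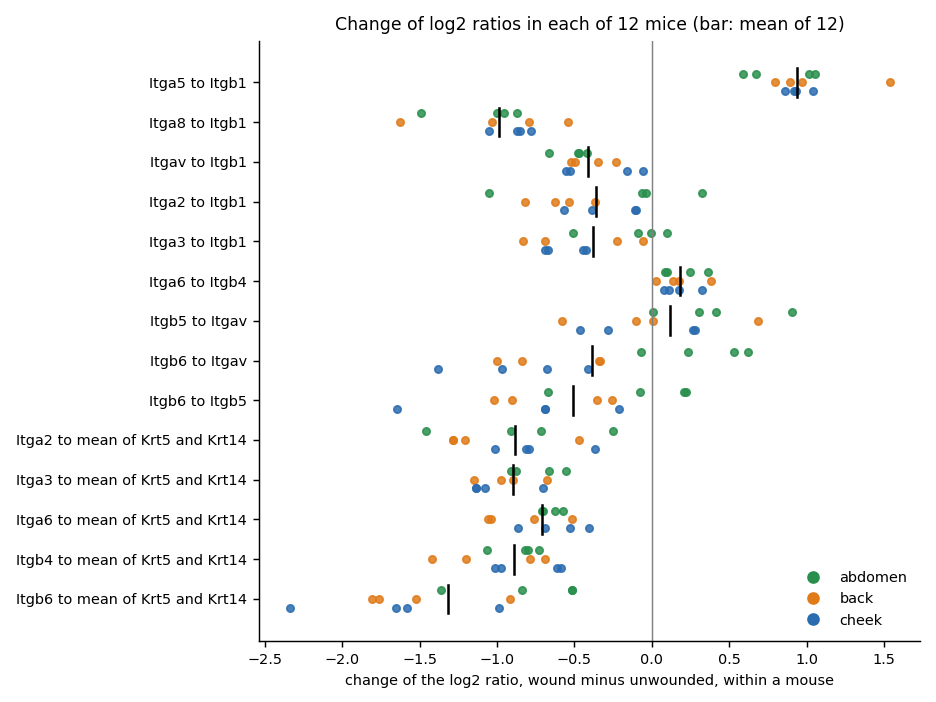
Change of 14 log2 ratios within each mouse (horizontal axis, wound minus unwounded skin), points coloured by site and bars at the mean of 12 mice. Itga5 to Itgb1 lies above 0 in all 12 mice and Itga8 to Itgb1 and Itgav to Itgb1 below 0 in all 12.

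Whether the wound effect itself differed between sites was tested with a moderated F test. No subunit passed (0 of 10, limma), while 0.0208% of the 14423 genes did, and 4 of 10 had an unadjusted p under 0.05 (Itga5, Itga8, Itgav and Itgb1) against 12.9% of genes. Itga5 had the lowest value (adjusted p = 0.15), with a back effect 0.62 ± 0.13 above that of the abdomen (adjusted p = 0.097), and passed without abdomen mouse 1 (0.030), a fit in which the genes called rose from 3 to 315 of 14381. For Itga8, Itgav and Itgb1 the adjusted p was 0.31, 0.33 and 0.35. A call at 1 site and not at another is thus not shown to be a difference between sites.

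In unwounded skin the question was whether sites of different embryonic origin differ in their integrins without injury. Called subunits numbered 0 of 10 for back against abdomen, cheek against abdomen and cheek against back (limma), where 2.67%, 2.57% and 1.05% of the 13956 genes tested were called, and 2, 2 and 1 subunits had an unadjusted p under 0.05, against 22%, 19% and 21.6% of genes. Itga8 came closest. Its abdomen range of 2.18 to 3.21 FPKM lay above all 8 libraries of back (1.56, 1.21, 2.09 and 1.76 FPKM) and cheek (1.68, 1.55, 1.84 and 1.54 FPKM), with log2 differences from abdomen of -0.59 ± 0.15 (adjusted p = 0.059) and -0.58 ± 0.15 (0.062). Both passed when all 24 libraries shared 1 estimate of the spread (0.019 and 0.022), a fit that also raised the genes called from 373 to 1527 and from 358 to 1266 of 14423, or without abdomen mouse 1 (0.046 and 0.047). Itgb6 tended the other way, at 2.2, 1.47, 1.82 and 2.8 FPKM in abdomen, 2.19, 3.26, 2.61 and 3.26 FPKM in back and 3.29, 4.21, 2.79 and 5.25 FPKM in cheek. The cheek and abdomen ranges just overlapped, and the difference of 0.76 ± 0.20 missed the threshold (adjusted p = 0.066). It passed with all 24 libraries in the fit (0.0072), without cheek mouse 3 (0.046) or without abdomen mouse 4 (0.033, a fit that called 693 genes in place of 358), while without cheek mouse 4 it was 0.62 (0.14). The comparisons of back and of cheek with abdomen share the abdomen libraries. The other 8 subunits differed by -0.30 to 0.00 (back minus abdomen), -0.19 to 0.42 (cheek minus abdomen) and -0.13 to 0.46 (cheek minus back). The median gene differed by -0.12 between back and abdomen and by 0.14 between cheek and back, so differences of that size in a single subunit are no larger than the shift of the whole table.

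**Figure D4:**
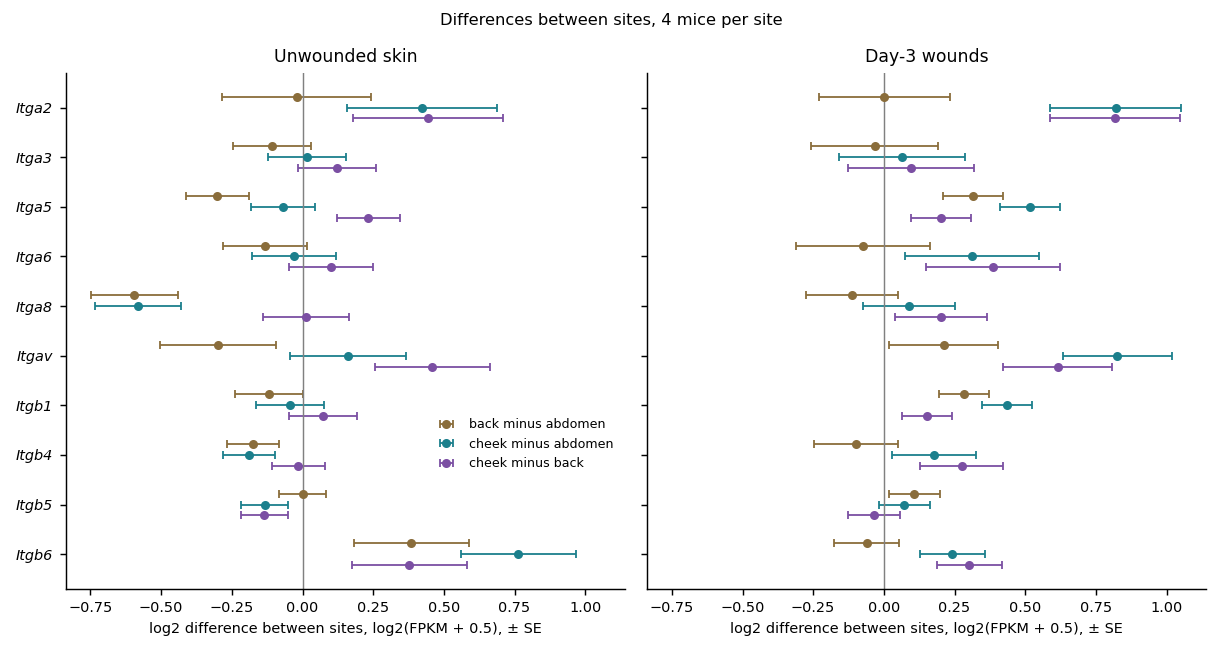
Log2 differences between sites (horizontal axis, with standard errors) for the 10 subunits in unwounded skin (left) and in day-3 wounds (right), 4 mice per site. In wounds the cheek minus abdomen points of Itga2, Itga5, Itgav and Itgb1 (0.44 to 0.83) are the ones past the threshold.

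In wounds the cheek stood higher than the abdomen. Between cheek and abdomen wounds 4 of 10 subunits were called, all higher in the cheek (Itga2, Itga5, Itgav and Itgb1), where 10.8% of the 14023 genes tested were called and 7.52% were called higher in the cheek. That background itself moved, from 1519 genes to 508 without abdomen mouse 3, 579 without cheek mouse 2, 652 without cheek mouse 3, 736 without cheek mouse 4, 757 without cheek mouse 1 and 769 with all 24 libraries in the fit. The split of 1054 higher and 465 lower in the cheek became 1704 and 373 with TPM, 700 and 691 with median-ratio scaling and 736 and 692 after quantile normalization. Itga5 had 30.26 to 34.20 FPKM in cheek wounds against 18.28 to 26.33 in abdomen wounds (log2 difference 0.52 ± 0.11, adjusted p = 0.016). Itgb1 had 134.18 to 140.41 FPKM against 88.89 to 116.24 (0.44 ± 0.09, adjusted p = 0.015). Neither pair of ranges overlapped. Itgav had 12.02 to 15.85 FPKM in cheek wounds against 4.60 to 10 in abdomen wounds (0.83 ± 0.19, adjusted p = 0.025) and Itga2 1.84 to 2.56 FPKM against 0.56 to 1.66 (0.82 ± 0.23, adjusted p = 0.043), again without overlap. Itga5 and Itgb1 kept the call whichever mouse was left out. All 10 subunits had a positive difference (the other 6 from 0.06 to 0.31), with a median of 0.28 against 0.07 over all genes, but Itga3 and Itga8 turned to -0.00 and -0.03 after quantile normalization, Itga3 to -0.13 without abdomen mouse 4, -0.04 without cheek mouse 3 and -0.06 without cheek mouse 4, and Itga8 to -0.0086 without abdomen mouse 1. The call of Itgav was lost without cheek mouse 1 (adjusted p = 0.058) or cheek mouse 2 (0.061), and that of Itga2 in 8 of 12 such fits (every cheek mouse, abdomen mice 3 and 4 and back mice 2 and 3; adjusted p up to 0.12) and in 6 of 10 other settings (up to 0.071), so that 2 subunits remained called at the fewest.

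Between back and abdomen wounds no subunit was called (0 of 10, limma; 1.27% of genes), and 2 had an unadjusted p under 0.05 against 16.5% of genes. Those were Itga5 (0.31 ± 0.11, adjusted p = 0.16) and Itgb1 (0.28 ± 0.09, adjusted p = 0.13). Between cheek and back wounds it was also 0 of 10 (2.5% of genes), with 3 under an unadjusted p of 0.05 (Itga2, Itgav and Itgb6) against 26.1% of genes. Itga2 (0.82 ± 0.23, adjusted p = 0.068) and Itgav (0.61 ± 0.19, adjusted p = 0.085) were higher in every cheek wound than in any back wound, and both passed without abdomen mouse 3 (0.041 and 0.028). Itga5 differed by 0.20 ± 0.11 (adjusted p = 0.25) and Itgb1 by 0.15 ± 0.09 (0.29). Cheek and back wounds also did not overlap for Itga5 (30.26 to 34.20 against 24.89 to 29.44 FPKM). The same held for Itgb6 (2.27 to 3.12 against 1.91 to 2.22 FPKM). The share of all genes without overlap was not computed. Marker lists moved over the same comparison. Between cheek and abdomen wounds 2 of 5 skeletal muscle markers, 2 of 6 fibroblast markers, 1 of 5 endothelial markers and 1 of 5 neutrophil markers were called higher in the cheek. Only these 2 of the 6 fibroblast markers had a difference above 0, and the median of the 6 was -0.15. Of 7 smooth muscle and pericyte markers 1 was called lower. None of the 4 keratins of activated keratinocytes or the 5 macrophage markers was called. The part of these cell types in the integrin values was not tested.

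The other genes of the pathway were read from lists by function. Of 17 further integrin subunits, 14 passed the filter (Itga10, Itgad and Itgb2l did not), and 5, 7 and 6 of them rose at abdomen, back and cheek, with none lower at the threshold of 0.001, which 4.96%, 14.4% and 8.69% of all genes passed in either direction. The 4 called at all sites, Itgb2, Itgam, Itgax and Itgal, are subunits of leukocyte integrins. Itgb2, their shared beta subunit, had 12.3 ± 2.2, 12.1 ± 4.6 and 10.99 ± 2.4 FPKM (SD, n = 4) in unwounded abdomen, back and cheek and 38.3 ± 12.6, 47.1 ± 6.5 and 40.4 ± 7.3 FPKM in wounds, with a mean log2 effect of 1.79. Itgam, Itgax and Itgal had mean effects of 1.71, 1.54 and 1.5, beside 1.52 for Itga5. Of the remaining subunits, Itga4, Itgb7 (both of lymphocytes and other leukocytes) and Itga1 (a collagen receptor) were called at 1 site each, Itga4 at the cheek (1.19), Itgb7 at the back (1.23) and Itga1 at the back (0.84). Itga7, a laminin receptor of muscle, was called at abdomen (0.94) and cheek (0.92), and Itgb3, a partner of alphav, at the back only (0.73). At the abdomen the call of Itgal and of Itgax was lost without abdomen mouse 1, 3 or 4, and that of Itgax also without back mouse 2.

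Of 15 ligand genes, 3, 6 and 6 rose and 0, 1 and 0 fell at the threshold of 0.001 at abdomen, back and cheek. Of all genes 4.96%, 14.4% and 8.69% passed it in either direction. At 0.05, 6, 7 and 8 ligand genes rose and 4, 2 and 2 fell, where 32.9%, 45.9% and 36.6% of all genes passed. The ligand genes called at 0.001 at all sites were Spp1 (osteopontin, a ligand of alphav and alpha8 integrins) with a mean log2 effect of 5.22, Tnc (tenascin-C, a provisional matrix protein) with 4.35 and Tgfb1, whose latent form alphavbeta6 activates, with 1.2. Spp1 went from 3.55 ± 1.3, 7.05 ± 4.1 and 3.95 ± 0.89 FPKM in unwounded abdomen, back and cheek to 124 ± 43, 285 ± 113 and 194 ± 46 FPKM in wounds. Lama3, the alpha chain of laminin-332, was called at back and cheek (1.28 and 1.78). Fn1, the fibronectin gene and ligand of alpha5beta1, had -0.25, 0.45 and 0.13 (adjusted p = 0.37, 0.091 and 0.66), so the transcript of the ligand did not pass where that of the receptor subunit did. Npnt, the nephronectin ligand of alpha8beta1, had -0.61, -0.62 and -0.53 and was called at the back (adjusted p = 0.00083). Tgfb1 was lost at the abdomen without abdomen mouse 2, 3 or 4.

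Of 14 genes of the adhesion complex inside the cell, 0, 5 and 3 rose at the threshold of 0.001 and none fell, against the same 4.96%, 14.4% and 8.69% of all genes. Tln1 (talin, which activates integrins) had 0.41, 0.74 and 0.65, Flna (filamin A) 0.17, 0.80 and 0.71 and Actn1 (alpha-actinin) 0.53, 0.86 and 0.79 at abdomen, back and cheek, each called at back and cheek, and Zyx and Pxn were called at the back. Between cheek and abdomen wounds 6 of these 14 genes were higher in the cheek, as were 7.52% of all genes, and none lower (Tln1, Tln2, Fermt2, Lims1, Parva and Flna). With 1 mouse left out, the adjusted p of Tln1, Lims1 and Parva reached 0.10, 0.081 and 0.051. Of 5 genes that hold integrins inactive, Dok1, an adaptor known mainly from leukocytes, was called at all sites (0.99, 1.35 and 1.27; lost at the abdomen without abdomen mouse 1, 3 or 4), and Dab2 at the back. The 6 hemidesmosome genes, Lama3 and Lamb3 among them already counted as ligands, split. Lama3 rose at back and cheek, while Dst (dystonin, the plaque linker to keratin) fell at abdomen and back (-0.70 and -0.62). Plec, Col17a1, Cd151 and Lamb3 passed 0.001 at no site. Many of these calls lay near the threshold: leaving out 1 mouse took the adjusted p of Dst to as much as 0.0046 at the abdomen and 0.0062 at the back, that of Npnt at the back to 0.0061, that of Pxn at the back to 0.0045 and that of Actn1 at the cheek to 0.0045.

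**Figure D5:**
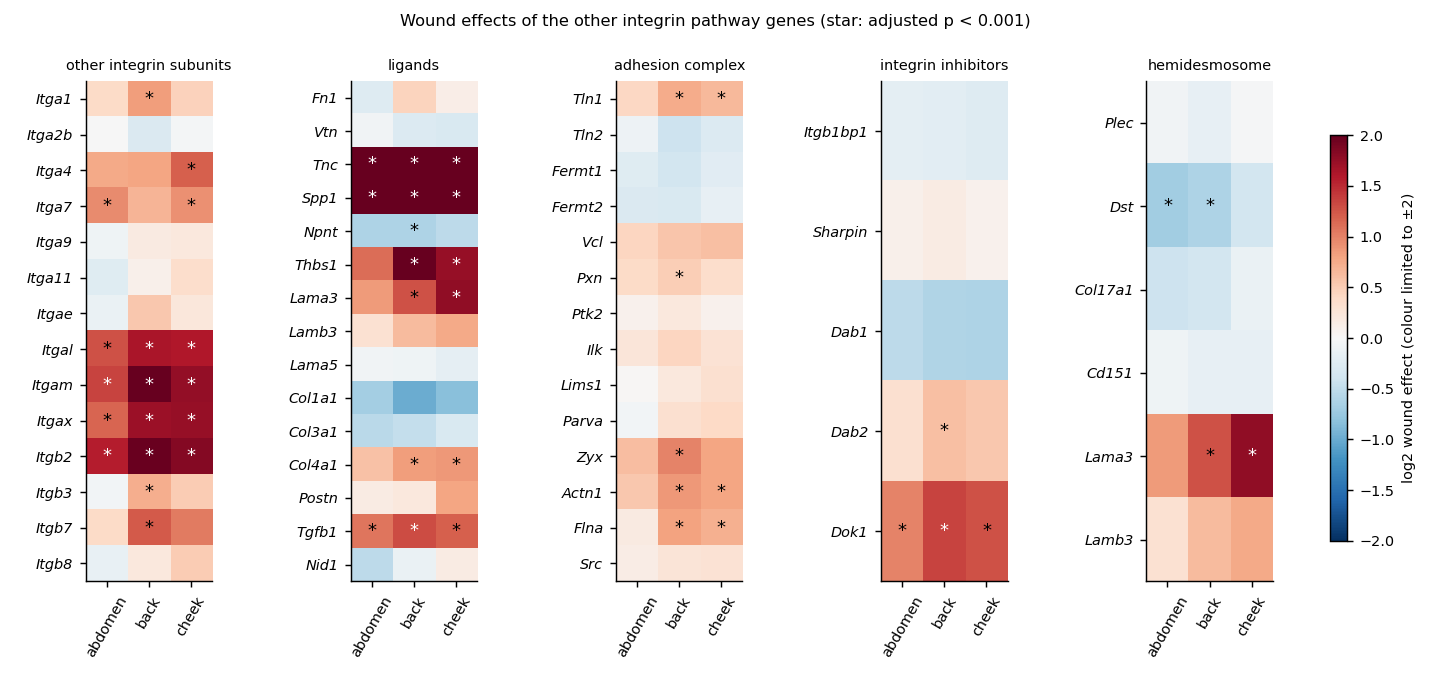
Log2 wound effects (colour, limited to plus or minus 2) at abdomen, back and cheek for the tested genes of 5 lists: other integrin subunits, ligands, adhesion complex, integrin inhibitors and hemidesmosome; stars mark adjusted p below 0.001. Starred genes at all 3 sites are the leukocyte integrins Itgb2, Itgam, Itgax and Itgal, the ligands Spp1, Tnc and Tgfb1, and Dok1.

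Genes with the most similar pattern were sought among 13059 genes by the root mean square difference of log2(FPKM + 0.5), centred over the 24 libraries. Nearest to Itga5 were Inpp5d (0.17), a lipid phosphatase of blood cells, and Emilin1 (0.18), a glycoprotein of elastic fibres, against a spread of Itga5 itself of 0.79. Nearest to Itgb1 were Capn2 (0.11), a calpain protease, and Eif1a (0.13), with a spread of 0.34. The nearest genes of Itgb5 were Tmem214 (0.09) and Ext2 (0.10), those of Itga8 Vgll3 (0.18) and Zc3hav1l (0.19), those of Itga6 Pcdhgc3 (0.17) and Atp11b (0.19) and those of Itgav Ranbp2 and Slk (both 0.17). For Itga2, Itga3, Itgb4 and Itgb6 the nearest were Sntb2, Utp4, Scap and Tspan7, at 0.14 to 0.17. No subunit had another of the 10 among its nearest 2 genes, and these points share library, depth and tissue composition.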

How the data were processed

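Total RNA of whole punches was sequenced as paired 100-base reads. The authors' provider filtered reads, mapped them to GRCm38 (HISAT2, and Bowtie2 2.2.5 to transcripts) and estimated FPKM per library with RSEM 1.2.12, and the authors deposited FPKM rounded to 2 decimals without scaling between libraries. A second deposited table holds the authors' own comparisons (fold changes on a log2 scale and adjusted p-values made with DESeq2), and it was not used. FPKM holds no counts, so depth is unknown. Steps in the low values of 27 genes gave relative depths of 0.923 to 1.07, a rough estimate. Library sums were 490830 to 608888 FPKM with 15781 to 16577 genes above 0, and no 2 libraries were identical.

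log2(FPKM + 0.5) was fitted with limma 3.58.1 (R 4.3.3, trend and robust; statmod 1.5.0). A gene entered a fit when 4 or more of its libraries reached 0.5 FPKM. Wound effects used 24 libraries with a term per mouse, and sites were compared within the 12 unwounded or 12 wound libraries. Benjamini-Hochberg adjustment ran over all genes of a comparison. Thresholds were 0.001 for wound effects and 0.05 otherwise. Single values were tested by exact sign changes over 12 mice (with 4 mice of a site the smallest p is 0.125) and by exact permutation of 4 against 4 mice (smallest p 0.029). Each wound and its unwounded control are of the same animal in the labels. Their deviations from group means correlated with a mean r of 0.32, 0.35 and 0.28 at abdomen, back and cheek (lowest -0.03). The fits were tested on simulated data. Members, gene lists and ratios were chosen with earlier results of these data known. The genes named were all 10 subunits, up to 4 of each pathway list with the largest mean effect among those called at all 3 sites, and the 2 nearest genes of each subunit. Any further gene was picked with its values in view. An item of the gene lists is not reported here. Alternatives were the pseudocount, filter, scaling, prior variance, blocking, samples in the fit and leaving out each mouse.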

Additional observations from a re-analysis of the deposited data

How the results depend on the processing

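The tally of single values covers the wound effects of the subunits and of the named pathway genes, the exact tests, the ratios and the site differences of the subunits singled out (Itga8 and Itgb6 in unwounded skin, Itga2, Itga5, Itgav and Itgb1 in wounds). Under settings other than leaving out a mouse, 801 kept direction and call, 35 lost a call, 8 gained one and 4 changed sign. With 1 mouse left out the numbers were 1176, 48, 16 and 8. The cause of these changes was not tested. Rescaling each library to equal totals (TPM) moved the median gene of the abdomen wound effect from -0.01 to -0.12, so that abdomen effects of that size depend on the scaling.

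The number of the 10 subunits called for the wound effect at the abdomen, 1, became 2 after quantile normalization, 2 with no replicate block, 2 at an adjusted p below 0.05 and 0 with each site fitted on its own 8 libraries. At the back 2 became 1 with no filter on low values, with TPM, with median-ratio scaling, after quantile normalization, without trend and robustness and with each site on its own 8 libraries. At the cheek 2 became 1 with no filter, with TPM, with median-ratio scaling, after quantile normalization and with each site on its own 8 libraries, and 6 at an adjusted p below 0.05. In unwounded skin, back against abdomen went from 0 to 1 without trend and robustness and to 1 with all 24 libraries in the fit, and cheek against abdomen from 0 to 1 after quantile normalization and to 2 with all 24 libraries, a fit in which the calls over all genes went from 373 to 1527 and from 358 to 1266. A replicate block by mouse number, which marks no shared animal or batch between sites (mean r -0.03 in unwounded skin and -0.05 in wounds), left 3 of 4 subunits called between cheek and abdomen wounds (Itga2 lost, adjusted p = 0.058) and 0 in the other site comparisons. The count was also 3, with Itga2 lost, with a pseudocount of 0.1, no filter, median-ratio scaling, quantile normalization and all 24 libraries.

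Without 1 mouse the count ranged from 1 to 2 at the abdomen, 1 to 2 at the back, 1 to 3 at the cheek, 0 to 1 for differing wound effects, 0 to 1 for back and 0 to 1 for cheek against abdomen in unwounded skin, 2 to 4 for cheek against abdomen and 0 to 2 for cheek against back in wounds. Over all genes the wound effect calls fell with a mouse of the same site left out, from 715 to as few as 293 at the abdomen, 2074 to 910 at the back and 1254 to 543 at the cheek. The count of subunits stayed at 0 for cheek against back in unwounded skin and for back against abdomen in wounds.

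Signs turned for values near 0. The Itgb4 wound effect at the abdomen was -0.051 with TPM, and the Itga2 effect at the back -0.0058 after quantile normalization. The Itga8 difference of unwounded cheek and back was -0.11 with median-ratio scaling and -0.16 after quantile normalization. Without 1 mouse the abdomen effects ranged from -0.11 to 0.40 for Itga2, -0.013 to 0.32 for Itga3 and -0.083 to 0.15 for Itgb4, the back effect of Itga2 from -0.026 to 0.23 and the Itga8 difference of unwounded cheek and back from -0.094 to 0.11. Over 12 mice, the exact test of Itga3 (p = 0.0254) and of Itgb4 (p = 0.0313) passed 0.05 on the deposited scale but not with TPM (exact p = 0.18 and 0.21). For genes near 1 FPKM, such as Itga2, depth limits what can be told apart.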
